A study of Mus musculus with 9 samples.

Results

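Genes of TREM2, Fc receptor and phagocyte signalling were followed across 9 RNA-seq libraries of mouse retinal cells. The 10 genes are Trem2, Tyrobp, Fcer1g, Fcgr1, Fcgr2b, Fcgr3, Clec7a, Syk, Axl and Mertk. They were chosen by name, with earlier results of these data known, and 9 of the 10 have a row among the 15228 genes listed. Tyrobp, the adaptor that carries TREM2 signals, was not analysed here. All libraries came from wild-type C57BL/6J mice of both sexes aged 6 to 8 weeks, and from retinal cells sorted as RGCs (retinal ganglion cells) by CD90.2 on the surface and the absence of CD48, CD15 and CD57. The Ctrl group (n = 3) came from retinas without injury. The ONC group (n = 3) was collected 3 d after optic nerve crush with PBS, the vehicle, injected into the eye. The TPEN group (n = 3) was collected 3 d after the same crush with an intraocular injection of 100 μM TPEN, a zinc chelator. Separate mice per library are not stated in the sources used here, so p-values measure the spread between these libraries, which may be technical.

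TREM2 is a surface receptor of microglia and macrophages that senses lipids, lipoproteins and cell debris. It has no signalling tail of its own and, like the activating Fc receptors with the adaptor encoded by Fcer1g, passes its signal through an ITAM, a tyrosine motif that recruits the kinase SYK. FcγRIIB instead carries an ITIM, the inhibitory counterpart, and the TAM receptor kinases AXL and MERTK take up apoptotic cells through bridging proteins such as GAS6 and protein S. In the retina these genes are known from microglia, infiltrating macrophages and, for Mertk, the pigment epithelium, which clears shed photoreceptor outer segments.

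Promoter sequences show what the start regions of these genes share beyond their names. RefSeq holds 12 promoters for the 9 genes on GRCm38.p6, each running from 250 bases before the transcription start to 50 after it. Of them, 5 are printed here, those of TREM2 and Clec7a as pattern receptors, of both activating Fc receptors, and of Mertk, a TAM kinase with none of the motifs. Capitals mark GAGGAA, the core of the site bound by PU.1, the lineage factor of macrophages, or its reverse complement TTCCTC, and in Fcgr1 also TTCNNNGAA, the gamma-activated site.
Trem2, chr17:48346151-48346450, strand plus: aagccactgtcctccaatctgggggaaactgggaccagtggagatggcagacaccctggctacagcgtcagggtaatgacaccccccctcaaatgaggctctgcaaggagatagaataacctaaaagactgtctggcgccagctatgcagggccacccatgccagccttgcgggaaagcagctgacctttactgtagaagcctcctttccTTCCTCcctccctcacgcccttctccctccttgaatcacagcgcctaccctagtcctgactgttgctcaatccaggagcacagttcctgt
Clec7a, chr6:129472730-129473029, strand minus: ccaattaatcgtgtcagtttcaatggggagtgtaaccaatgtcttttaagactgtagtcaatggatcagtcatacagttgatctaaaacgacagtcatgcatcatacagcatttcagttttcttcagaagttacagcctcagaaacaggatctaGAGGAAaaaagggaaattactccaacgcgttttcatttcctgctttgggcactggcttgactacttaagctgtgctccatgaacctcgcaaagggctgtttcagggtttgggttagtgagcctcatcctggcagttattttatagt
Fcgr1, chr3:96293920-96294219, strand minus: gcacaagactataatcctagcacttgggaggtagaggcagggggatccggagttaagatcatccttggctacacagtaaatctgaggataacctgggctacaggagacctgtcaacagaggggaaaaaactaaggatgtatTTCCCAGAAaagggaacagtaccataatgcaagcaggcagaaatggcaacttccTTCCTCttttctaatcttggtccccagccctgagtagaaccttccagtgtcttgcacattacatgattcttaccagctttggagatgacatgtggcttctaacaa
Fcgr3, chr1:171059354-171059653, strand minus: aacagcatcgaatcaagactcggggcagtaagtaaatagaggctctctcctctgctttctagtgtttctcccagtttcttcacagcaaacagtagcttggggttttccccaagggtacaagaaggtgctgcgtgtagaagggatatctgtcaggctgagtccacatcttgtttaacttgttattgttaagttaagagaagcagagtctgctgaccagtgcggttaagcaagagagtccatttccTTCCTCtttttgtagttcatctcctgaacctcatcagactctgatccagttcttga
Mertk, chr2:128698665-128698964, strand plus: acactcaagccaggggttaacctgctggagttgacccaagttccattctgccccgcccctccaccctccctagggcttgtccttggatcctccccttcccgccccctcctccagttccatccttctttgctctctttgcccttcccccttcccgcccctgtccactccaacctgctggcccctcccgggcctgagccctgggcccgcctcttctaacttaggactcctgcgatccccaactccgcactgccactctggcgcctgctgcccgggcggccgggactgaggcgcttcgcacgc
GAGGAA on either strand was found in any promoter of 6 of the 9 genes, and in 28.3% of all 32851 mouse promoters of the same length. It lay 40 bases before the start of Trem2, 96 before that of Clec7a, 55 before that of Fcgr1 and 6 before that of Fcgr3 in the sequences printed. In Axl it lay 130 bases before the start, and in Syk it was found in the second promoter, 9 bases before the start. TTCNNNGAA was found for Fcgr1 alone, 109 bases before the start, and in 8.30% of all promoters. The interferon-stimulated response element was found in 0 of the 9 genes and in 3.44% of all promoters. The genes were counted over all their promoters, whereas the percentages are of single promoters, so the 2 are unlike measures. A match is a description of these letters, and Fcer1g, Fcgr2b and Mertk held none of the motifs in this window.

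Library depth was 19946993 to 23109754 reads. In each library 76.3% to 90.0% of the genes with 1 to 4 reads had an even number, against 48.4% to 51.6% of genes with 1000 reads or more, the pattern left where both mates of a read pair are counted. Counting errors are therefore given in read pairs, and a count of 0 allows up to 3 pairs, which is 0.260 to 0.301 on the RPM scale. Of 12 RGC markers 10 were listed, and they summed to 361 to 371 RPKM (reads per kilobase of exon, scaled to library depth) in Ctrl, 370 to 391 in ONC and 288 to 302 in TPEN. Their levels in Ctrl ran from Nefl, the neurofilament light chain gene, at 258 RPKM to Rbpms at 0.605, Pou4f1 at 0.571 and Slc17a6 at 0.268. Gnat1, the rod transducin gene, stood at 11521 RPKM, so the sorted material was not RGCs alone. Of 8 pan-macrophage markers 7 were listed, and their summed level was 1.57 to 2.04 RPKM in Ctrl, 16.4 to 17.5 in ONC and 7.53 to 8.74 in TPEN. The 10 homeostatic microglia markers summed to 6.23 to 6.93, 26.3 to 27.4 and 19.8 to 21.7 RPKM. Only F13a1 and Fn1 of 8 monocyte markers were listed, and they summed to 0.359 to 0.470, 4.02 to 4.70 and 0.823 to 1.06 RPKM. The 5 cone markers summed to 102 to 107 RPKM in Ctrl, 88.5 to 96.3 in ONC and 156 to 158 in TPEN, and all 5 were called higher in TPEN/ONC. The part of these shifts in the results below was not tested. In such bulk libraries more cells of a type and more RNA per cell cannot be told apart.

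All 9 genes were higher 3 d after crush than in Ctrl, and with TPEN 8 of the 9 lay lower than after crush alone with no overlap between the libraries, Mertk being the exception. Differences were tested with limma on log2(RPKM + 0.1), fitted to the 13566 genes that averaged 0.5 RPKM or more. The call required a Benjamini-Hochberg adjusted p below 0.05 together with a change of 1.5-fold or more. Trem2, Fcer1g, Fcgr3, Axl and Mertk passed this filter, and Fcgr1, Fcgr2b, Clec7a and Syk did not, so their fold changes come from the same fit on all 15228 genes. Trem2, Fcer1g and Fcgr3 averaged under 0.5 RPKM in Ctrl and passed only through the other groups, whereas Axl and Mertk were above it in every group. Every listed gene had at least 16 reads summed over the ONC libraries, while 10 genes had 0 in all 3 Ctrl libraries and 3 in all 3 TPEN libraries, so the list holds no gene that was absent in ONC. For ONC/Ctrl, 4.58% of the genes tested were called higher and 0.752% lower, and 6.19% higher in the fit without the filter. Without overlap of the groups, 21.3% of all genes were higher in ONC. For TPEN/ONC, 0.818% were called higher and 1.21% lower, and 1.85% lower without the filter, while 15.6% lay lower with no overlap. For TPEN/Ctrl, 3.45% were called higher and 0.457% lower, 4.5% higher without the filter, and 19% higher with no overlap. With quantile normalization the ONC/Ctrl calls split into 525 higher and 184 lower, against 622 and 102 without it. A fold change on this scale understates the change of low genes.

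**Figure D1:**
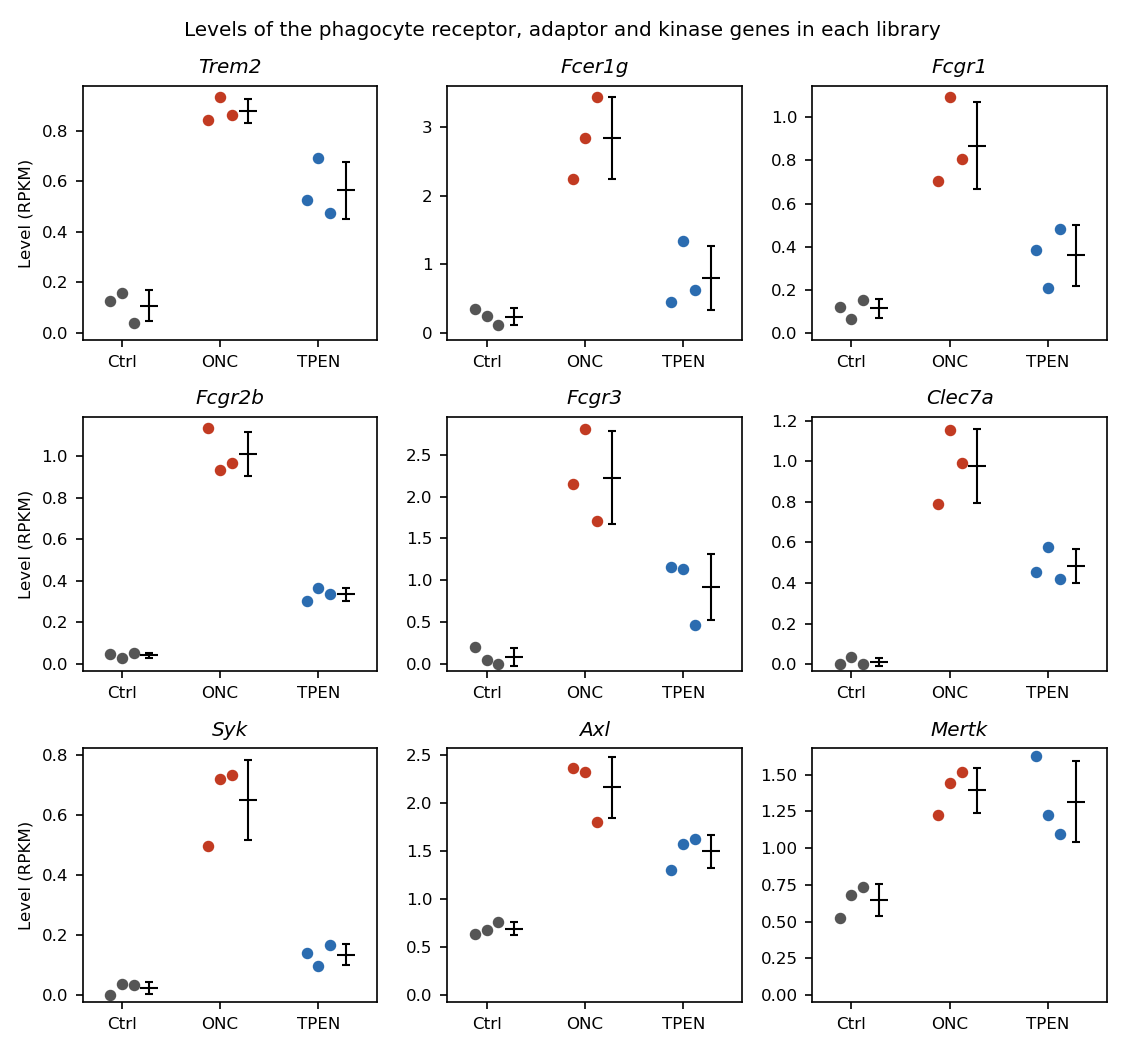
Level of each gene in RPKM in every library of the Ctrl, ONC and TPEN groups. Points are libraries, and the bar beside them is the mean with its SD (n = 3). Every ONC library lies above every Ctrl library for all 9 genes, and in TPEN the points of Mertk alone reach into the ONC range.

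Trem2 on chromosome 17 (48346401 to 48354147 on GRCm38, plus strand) was at 0.126, 0.157 and 0.0403 RPKM in the Ctrl libraries 1 to 3. After crush it was at 0.844, 0.933 and 0.863 RPKM, and with TPEN at 0.526, 0.692 and 0.476 RPKM. The ONC libraries were tightly grouped, and the TPEN libraries lay between the other groups. Its mean rose 8.15-fold after crush, from 0.108 ± 0.0607 to 0.880 ± 0.0468 RPKM (SD, n = 3), and the log2 change was 2.28 (SE 0.24, adjusted p = 0.000136, limma). The TPEN/ONC difference of Trem2 was -0.57 (SE 0.24, 95% interval -1.11 to -0.03) and was not called (adjusted p = 0.199), although no library overlapped, while limma-voom on whole reads of all genes called it (adjusted p = 0.0485). TPEN remained above Ctrl for Trem2, by a log2 change of 1.71 (SE 0.24, adjusted p = 0.00128).

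Clec7a encodes dectin-1, a receptor of fungal β-glucans with a hemITAM that recruits SYK directly, and is a widely used marker of activated microglia. In Ctrl it was at 0, 0.0328 and 0 RPKM, which is 2 reads in all, and the counts of 0 allow up to 0.101 and 0.113 RPKM. It was at 0.792, 1.16 and 0.990 RPKM after crush and at 0.455, 0.580 and 0.418 RPKM with TPEN. Nearly all reads of Clec7a thus came from crushed eyes, and no TPEN library reached the lowest ONC library. In read pairs, 89 in ONC stood against 1 in Ctrl, a ratio of 84.7 with an exact counting interval of 14.8 to 3383, and 40 in TPEN gave a ratio of 42.2 (7.16 to 1709). The TPEN/ONC log2 change of Clec7a was -0.88 (SE 0.19, adjusted p = 0.0237). This call was lost without ONC replicate 2 or 3 or TPEN replicate 1 or 3, with adjusted p of 0.0893, 0.0758, 0.0715 and 0.0876, and with a pseudocount of 1 RPKM the fold was under 1.5 (log2 change -0.41).

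Fcer1g encodes the common γ chain, the ITAM adaptor of the activating Fc receptors and of several lectins. It was at 0.357, 0.248 and 0.114 RPKM in Ctrl, at 2.24, 2.84 and 3.44 RPKM after crush, and at 0.458, 1.34 and 0.631 RPKM with TPEN. It had the highest mean of the 9 genes after crush, although Axl was higher in ONC replicate 1 (2.37 RPKM). The mean of Fcer1g rose 11.8-fold, with a log2 change of 3.16 (SE 0.37, adjusted p = 0.000269). With TPEN it fell to a mean of 0.809 ± 0.467 RPKM from 2.84 ± 0.599, a log2 change of -1.79 (SE 0.37, adjusted p = 0.0187), the one gene of the 5 past the filter that was called. TPEN replicate 2 stood above the other TPEN libraries and still below every ONC library. The TPEN/ONC call of Fcer1g was lost without ONC replicate 2 or 3 or TPEN replicate 1 or 3, with adjusted p of 0.0637, 0.0720, 0.0613 and 0.0691 and log2 changes of -1.50 to -1.78. Fcer1g in TPEN/Ctrl was near the threshold (log2 change 1.37, adjusted p = 0.0382), and leaving out Ctrl replicate 2 or 3, any ONC replicate, or TPEN replicate 2 or 3 gave 0.0510 to 0.112, and the 6 libraries alone 0.0793.

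The 3 Fcγ receptor genes listed are Fcgr1, the high-affinity activating receptor, Fcgr3, a low-affinity activating receptor, and Fcgr2b, the inhibitory receptor. Fcgr2b and Fcgr3 have closely similar extracellular parts, so reads may be split uncertainly between them. Fcgr3 was at 0.206, 0.0499 and 0 RPKM in Ctrl, where the count of 0 allows up to 0.172 RPKM. It was at 2.16, 2.81 and 1.71 RPKM after crush and at 1.15, 1.14 and 0.462 RPKM with TPEN. Its log2 change in ONC/Ctrl was 3.78 (SE 0.43, adjusted p = 0.000232), the largest of the 9 genes with a pseudocount of 0.1 RPKM, although Clec7a (89.5) and Syk (28.3) had larger ratios of means than Fcgr3 (26.1). Its TPEN/ONC difference was -1.25 (SE 0.43, 95% interval -2.22 to -0.28) and was not called (adjusted p = 0.121), while limma-voom on the whole reads called it (adjusted p = 0.00528), as did a pseudocount of 1 RPKM (adjusted p = 0.0241).

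Fcgr2b was at 0.0462, 0.0299 and 0.0516 RPKM in Ctrl. It was at 1.13, 0.932 and 0.970 RPKM after crush and at 0.302, 0.365 and 0.338 RPKM with TPEN. The 3 groups formed narrow and separate bands, with TPEN closer to Ctrl than to ONC. The inhibitory receptor rose 23.8-fold in its mean after crush (log2 change 2.96, SE 0.15, adjusted p = 7.75e-07) and was 3.02-fold lower in its mean with TPEN (log2 change -1.35, SE 0.15, adjusted p = 0.000650). Of the 9 genes it alone kept its TPEN/ONC call in every alternative that was run, 14 in all.

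Fcgr1 was at 0.121, 0.0669 and 0.154 RPKM in Ctrl, at 0.706, 1.09 and 0.807 RPKM after crush, and at 0.387, 0.209 and 0.484 RPKM with TPEN. The high-affinity receptor rose by a log2 change of 2.18 after crush (SE 0.27, adjusted p = 0.000305). It was lower with TPEN by a log2 change of -1.10 (SE 0.27, adjusted p = 0.0345). That call was lost when Ctrl replicate 1, any ONC replicate, or TPEN replicate 1 or 2 was left out, with adjusted p of 0.0529 to 0.118. It was also lost with only the 6 libraries compared (0.0515) and with a pseudocount of 1 RPKM, where the log2 change was -0.46. In TPEN/Ctrl, Fcgr1 had a log2 change of 1.08 (adjusted p = 0.0255), and without Ctrl replicate 1 or 2 or TPEN replicate 1 or 3 the adjusted p was 0.0599 to 0.0875.

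Syk, the kinase on which these ITAM receptors converge, was at 0, 0.0370 and 0.0319 RPKM in Ctrl, where the count of 0 allows up to 0.0286 RPKM. After crush it was at 0.497, 0.721 and 0.735 RPKM, and with TPEN at 0.139, 0.0962 and 0.166 RPKM. TPEN libraries held 77 reads of Syk in all against 420 in ONC and 14 in Ctrl. Its log2 change was 2.61 in ONC/Ctrl (SE 0.21, adjusted p = 1.71e-05) and -1.68 in TPEN/ONC (SE 0.21, adjusted p = 0.00136). Of the 14 alternatives compared for Syk, the TPEN/ONC call failed only with a pseudocount of 1 RPKM, where the fold was under 1.5 (log2 change -0.54). In TPEN/Ctrl its log2 change was 0.93 (SE 0.21, adjusted p = 0.0159), and without Ctrl replicate 1 or TPEN replicate 3 the adjusted p was 0.0578 and 0.0604.

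Axl and Mertk, the TAM kinases, had the highest levels of the 9 genes in uninjured retinas. Axl was at 0.638, 0.679 and 0.762 RPKM in Ctrl, at 2.37, 2.33 and 1.80 RPKM after crush, and at 1.30, 1.57 and 1.62 RPKM with TPEN. Its mean rose from 0.693 ± 0.0631 to 2.16 ± 0.317 RPKM after crush (log2 change 1.51, SE 0.14, adjusted p = 6.02e-05). The TPEN/ONC difference of Axl was -0.50 (SE 0.14, 95% interval -0.81 to -0.18, adjusted p = 0.0669) and was called only without ONC replicate 3 (log2 change -0.62, adjusted p = 0.0452). Mertk was at 0.525, 0.679 and 0.735 RPKM in Ctrl, at 1.22, 1.45 and 1.52 RPKM after crush, and at 1.63, 1.22 and 1.10 RPKM with TPEN. It rose 2.16-fold in its mean after crush (log2 change 1.01, SE 0.17, adjusted p = 0.00288), and its libraries with TPEN spread across the whole ONC range. The TPEN/ONC difference of Mertk was -0.09, with a 95% interval of -0.48 to 0.30 (adjusted p = 0.817). TPEN/Ctrl gave log2 changes of 1.01 for Axl (adjusted p = 0.00124) and 0.92 for Mertk (adjusted p = 0.00688). Both genes are also used outside the macrophage lineage. The 3 listed markers of pigment epithelium out of 8 summed to 10.4 to 12.3 RPKM in Ctrl, 20.9 to 23.8 in ONC and 17.1 to 19.8 in TPEN, and 4 of 5 astrocyte markers to 6.05 to 6.57, 28.5 to 29.8 and 18.5 to 21.9 RPKM. The part of these cells in the levels of Axl and Mertk was not tested.

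**Figure D2:**
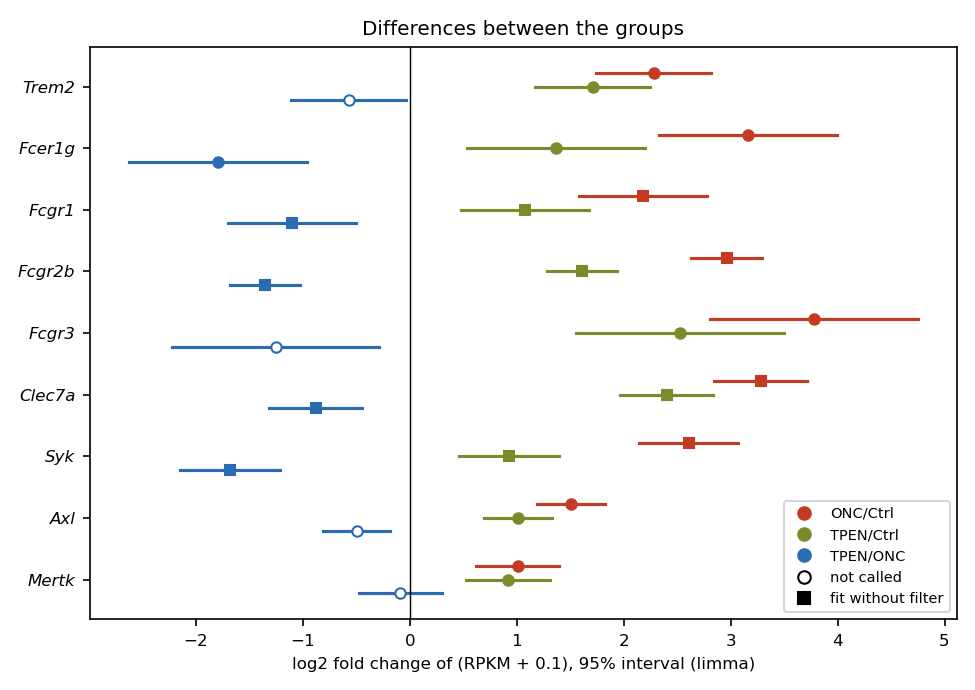
Log2 fold change of (RPKM + 0.1) for each gene in ONC/Ctrl, TPEN/Ctrl and TPEN/ONC, with 95% intervals from limma. Filled symbols were called, open ones were not, and squares mark genes from the fit without the filter. All 9 values of ONC/Ctrl and of TPEN/Ctrl are filled and above 0, and in TPEN/ONC the open symbols are Trem2, Fcgr3, Axl and Mertk.

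By count over all 9 genes, in the fit without the filter, 9 were called higher in ONC/Ctrl, beside 6.19% of all genes. Their median log2 change was 2.61 beside 0.02 over all genes. In TPEN/ONC 5 of 9 were called lower, beside 1.85% of all genes, and 0 higher, with a median of -1.10 beside -0.01. In TPEN/Ctrl 9 of 9 were called higher, beside 4.5% of all genes, with a median of 1.37 beside 0.02. In the fit with the filter all 5 genes were called higher in ONC/Ctrl (4.58% of genes tested) and in TPEN/Ctrl (3.45%), and 1 lower in TPEN/ONC (1.21%). Of these 5, 3 passed it only through the groups after crush. The 9 genes were chosen with earlier results of these data known, and the list holds no gene that was absent in ONC. The counts with and without the filter are therefore a description and do not test the set against all genes. TPEN/ONC and ONC/Ctrl share the ONC libraries, so a gene high in those by chance would fall in the former as it rises in the latter. Every one of the 9 genes had ONC libraries and TPEN libraries above all Ctrl libraries, beside 21.3% and 19% of all genes. With a pseudocount of 1 RPKM only Fcgr3 of the 9 was still called in TPEN/Ctrl, and Mertk was not called in ONC/Ctrl (log2 change 0.54, below the fold required). With quantile normalization the TPEN/Ctrl calls of Fcer1g, Fcgr1 and Syk were lost (adjusted p = 0.131, 0.113 and 0.206).

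The order of the levels changed between groups. In Ctrl, Axl (0.693 ± 0.0631 RPKM, SD, n = 3) and Mertk (0.646 ± 0.109) led and did not differ beyond their spread, and Fcer1g followed at 0.240 ± 0.122. After crush Fcer1g led by mean at 2.84 ± 0.599 RPKM, ahead of Fcgr3 at 2.22 ± 0.555 and Axl at 2.16 ± 0.317, which were within their spread of each other. The libraries of Fcer1g overlapped those of both. Mertk (1.40 ± 0.153) stood between these and a group of 4 within 1 SD of their neighbours, Fcgr2b (1.01 ± 0.107), Clec7a (0.979 ± 0.182), Trem2 (0.880 ± 0.0468) and Fcgr1 (0.869 ± 0.201), with Syk lowest at 0.651 ± 0.133. With TPEN, Axl (1.50 ± 0.173) and Mertk (1.32 ± 0.276) led again by mean, although Fcer1g was above Mertk in TPEN replicate 2. Syk was again lowest at 0.134 ± 0.0352 RPKM.

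The share of the rise after crush that was left with TPEN differed widely among the genes. It was computed in each TPEN library from the means of Ctrl (0%) and ONC (100%), so its SD covers the TPEN libraries only. Syk kept 17.6% ± 5.61 of its rise, Fcer1g 21.9% ± 18.0, Fcgr2b 30.2% ± 3.25 and Fcgr1 32.6% ± 18.5. Fcgr3 kept 39.0% ± 18.5, Clec7a 48.9% ± 8.77, Axl 54.8% ± 11.7, Trem2 59.2% ± 14.6 and Mertk 89.5% ± 36.8 (SD, n = 3 each). The kinase and the inhibitory receptor thus lay in narrow ranges, 11.7% to 22.8% and 26.8% to 33.3%, below every TPEN library of Trem2 (47.7% to 75.6%) and of Mertk (60.4% to 131%).

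**Figure D3:**
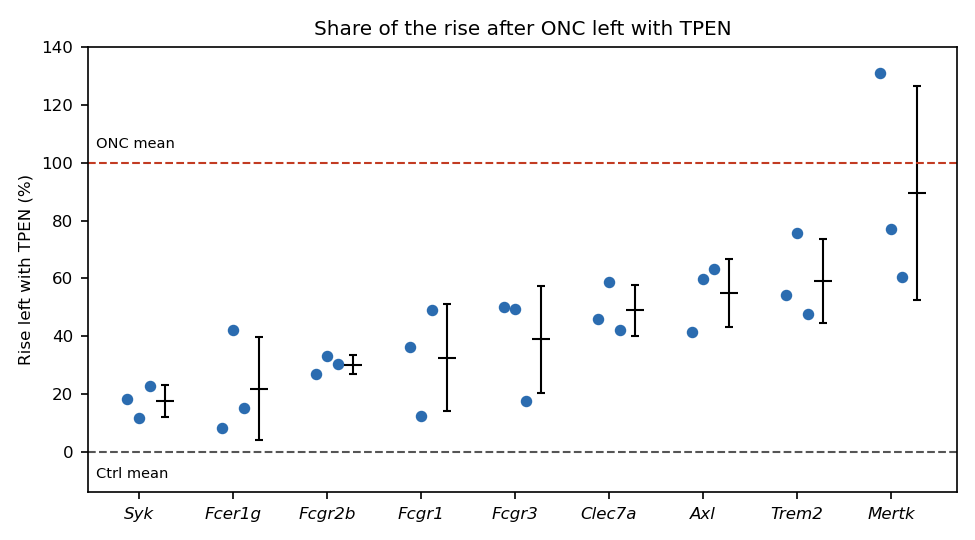
Percent of the rise after ONC that was left with TPEN, for each gene in order of the mean. Points are TPEN libraries, the bar beside them the mean with its SD (n = 3), and dashed lines mark the Ctrl mean (0%) and the ONC mean (100%). Syk is lowest at 17.6% and Mertk highest at 89.5%, with 1 library above the ONC mean.

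Ratios of 2 genes within a library cancel its depth, apart from the 0.1 RPKM added to both genes before taking log2. That addition draws the log2 ratio towards 0, most where levels are low. The 5 ratios given here were chosen after the values were seen, and each was compared over the 3 groups by an exact permutation test with 280 arrangements, while a pair of groups cannot go below p = 0.1. The log2 ratio of Syk to Trem2 was -0.66, -0.33 and -0.21 in ONC and -1.39, -2.01 and -1.12 in TPEN, a difference of -1.11. Its permutation p was 0.1 for TPEN against ONC and 0.0679 over the 3 groups (adjusted over the 5 ratios 0.170). The ONC and TPEN libraries did not overlap, and Trem2 exceeded Syk by more with TPEN than after crush alone. In Ctrl this ratio was -1.18, -0.91 and -0.09, which overlapped both other groups, and Syk there had 14 reads in all. Fcgr2b to Trem2 was 0.39, -0.0009 and 0.15 in ONC and -0.64, -0.77 and -0.40 in TPEN, a difference of -0.78. In Ctrl that ratio was -0.63, -0.99 and 0.11, which also overlapped both other groups. Its permutation p was 0.1 for TPEN against ONC and 0.121 over the 3 groups (adjusted 0.202). Trem2 to Mertk averaged -1.88 ± 0.61 in Ctrl, -0.61 ± 0.13 in ONC and -1.09 ± 0.36 in TPEN (SD, n = 3; permutation p = 0.0107, adjusted 0.0536). Axl to Mertk differed by -0.41 between TPEN and ONC (permutation p = 0.3, and 0.243 over the 3 groups, adjusted 0.264). Fcgr2b to Fcgr3, the inhibitory over an activating receptor, differed by -0.10 between TPEN and ONC (permutation p = 0.9, and 0.264 over the 3 groups, adjusted 0.264). The sign of that difference turned in 4 of the alternatives run. Over the 3 groups, 0 of the 5 ratios passed 0.05 after adjustment, and 1 passed it before.

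Set against the summed pan-macrophage markers in the same library, the genes parted in direction. Here too 0.1 RPKM was added to gene and sum before taking log2. Relative to that sum, Mertk was higher in TPEN than in ONC by 0.97 on the log2 scale, Axl by 0.57 and Trem2 by 0.49, with no overlap for these 3. Fcer1g was lower by 0.73 relative to the sum, with overlap, and Syk by 0.62, without. Clec7a (0.18), Fcgr1 (-0.04), Fcgr3 (-0.19) and Fcgr2b (-0.29) differed by little and overlapped. Against the summed homeostatic microglia markers, 8 of the 9 genes were lower in TPEN than in ONC, with a median of -0.72 on the log2 scale. Trem2 (-0.19), Axl (-0.12) and Clec7a (-0.50) turned in sign from one reference to the other, and Mertk (0.29) did not. These values are descriptions with no test. With a pseudocount of 1 RPKM the value for Syk became 0.45, that for Fcgr2b 0.40 and that for Fcgr1 0.53.

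The other genes of the pathway were taken as 5 lists. Medians are over all listed genes of a list, without the filter. In that fit 6.19% of all genes were called higher in ONC/Ctrl, 1.85% lower in TPEN/ONC and 4.5% higher in TPEN/Ctrl. Of 22 genes that relay an ITAM signal 20 were listed, of which 15 rose in ONC/Ctrl and 0 fell without the filter, with a median of 1.41. With the filter 7 of 11 rose. Pik3ap1, an adaptor that links receptors to PI3-kinase, rose from 0.202 ± 0.0802 to 3.37 ± 0.0812 RPKM (log2 change 3.56, adjusted p = 3.60e-06). The exchange factor gene Vav1 (3.24), the Src-family kinase gene Lyn (2.94) and Plcg2, the phospholipase downstream of SYK (2.54), had the next largest log2 changes. These same 4 genes were the ones past the filter that fell in TPEN/ONC, by log2 changes of -1.51, -1.26, -0.89 and -1.03. Without the filter 5 of 20 fell, Lcp2 being the other (-1.14, named after its value was seen), with a median of -0.49. Lyn overlaps the listed gene Gm26857 on the genome. In TPEN/Ctrl, 6 of the 11 past the filter were higher, and 4 of those 6 were again Pik3ap1, Vav1, Lyn and Plcg2.

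Of 19 genes that restrain these receptors 13 were listed, of which 7 rose in ONC/Ctrl and 1 fell without the filter, with a median of 0.80. With the filter 5 of 11 rose and 1 fell. Lilrb4a, which encodes an ITIM receptor, rose from 0.135 ± 0.0567 to 2.95 ± 0.481 RPKM and was at 0.480 ± 0.151 RPKM with TPEN, log2 changes of 3.71 and -2.41 (adjusted p = 0.000412 for the latter). Ptpn6, the gene of the phosphatase SHP-1 that ITIMs recruit, changed by 2.62 and -1.13 on the log2 scale. Pirb, another ITIM receptor gene, was below the filter and changed by 2.55 and -2.16 in the fit without it. Laptm5, a lysosomal membrane protein gene and also one of the pan-macrophage markers, changed by 2.61 in ONC/Ctrl, and its TPEN/ONC value was -0.59 (adjusted p = 0.0876). Inpp5d, the gene of the lipid phosphatase SHIP1, rose by 1.43, and its TPEN/ONC value was -0.68 with an adjusted p of 0.0618 with the filter and 0.0488 without. The gene that fell in ONC/Ctrl was Dok3 (-0.66, adjusted p = 0.0239), and the 3 past the filter that fell in TPEN/ONC were Lilrb4a, Ptpn6 and Cd300lf (-0.59), against 5 of 13 without the filter. Dok3 and Cd300lf were named after their values were seen.

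Of 22 other receptors that pair with Tyrobp or Fcer1g only Clec5a, Clec4e and Siglech were listed, and Siglech alone passed the filter. Siglech, a microglial lectin gene, averaged 0.152 RPKM in Ctrl, 1.04 in ONC and 0.900 in TPEN and rose by 2.17 on the log2 scale (adjusted p = 8.25e-05), while its TPEN/ONC value was -0.18 (adjusted p = 0.679). Clec5a, which signals through Tyrobp, averaged 0.0328, 0.722 and 0.243 RPKM and was called in both directions without the filter, by 2.64 and -1.25. Clec4e, the gene of the lectin Mincle that pairs with Fcer1g, had 0 reads in the 6 libraries of Ctrl and TPEN and was at 0.324 ± 0.0317 RPKM in ONC. Taking 3 pairs per library as the floor, ONC exceeded Ctrl at least 5.87-fold and TPEN at least 5.56-fold.

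All 10 partners, bridging ligands and sheddases of TAM receptors and TREM2 were listed and passed the filter, and 4 rose in ONC/Ctrl, with a median of 0.23. Pros1, the gene of protein S, rose from 0.815 ± 0.203 to 1.80 ± 0.0981 RPKM (log2 change 1.08, adjusted p = 0.00173) and was at 1.64 ± 0.257 RPKM with TPEN. Gas6, the other bridging ligand, was at 67.6, 63.6 and 64.6 RPKM on average, and Tyro3, the third TAM kinase, at 1.65, 1.75 and 1.68 RPKM, with neither called. Apoe, which encodes a lipoprotein bound by TREM2, was at 172, 268 and 178 RPKM, with log2 changes of 0.64 and -0.59 (adjusted p = 3.92e-06 for the latter). It was the one gene of the 10 that fell in TPEN/ONC, it lies just past the fold of 1.5, and the call was lost without ONC replicate 1 or TPEN replicate 1 or 3, leaving 0 of 10. Clu, another lipoprotein gene, rose by 0.62 and Itgb5, an integrin gene, by 0.66. Apoe is also made by Müller glia and is one of the 8 markers of these cells used here. The other 7 summed to 384 to 399 RPKM in Ctrl, 353 to 355 in ONC and 305 to 322 in TPEN. These 7 did not move together. Glul averaged 173 RPKM in Ctrl and 116 in ONC, while Vim averaged 19.0 and 57.1 and was called higher (log2 change 1.59). The part of Müller glia in the level of Apoe was not tested.

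Of 20 damage-associated genes linked to TREM2, 18 were listed and 14 passed the filter. The dependence of each on TREM2 was not tested. Without the filter 13 of the 18 rose in ONC/Ctrl, with a median of 1.23, and 8 fell in TPEN/ONC, with a median of -0.64. With it, 10 of the 14 rose and 8 fell. Spp1, the osteopontin gene, rose from 0.115 ± 0.106 to 6.27 ± 0.456 RPKM and was at 2.23 ± 0.402 RPKM with TPEN, log2 changes of 5.03 and -1.46 (adjusted p = 7.47e-06 and 0.0335). It overlaps the listed gene Gm42793. Ccl6, a chemokine gene, changed by 3.93 and -1.71, Lilrb4a as given above, and Cd68, a lysosomal glycoprotein gene of phagocytes, by 3.09 and -1.24. Without ONC replicate 1, TPEN replicate 1 or TPEN replicate 3, 5 of the 14 fell. In TPEN/Ctrl 8 of the 18 were higher, with a median of 0.69. Apoe and Lilrb4a count in 2 lists each.

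**Figure D4:**
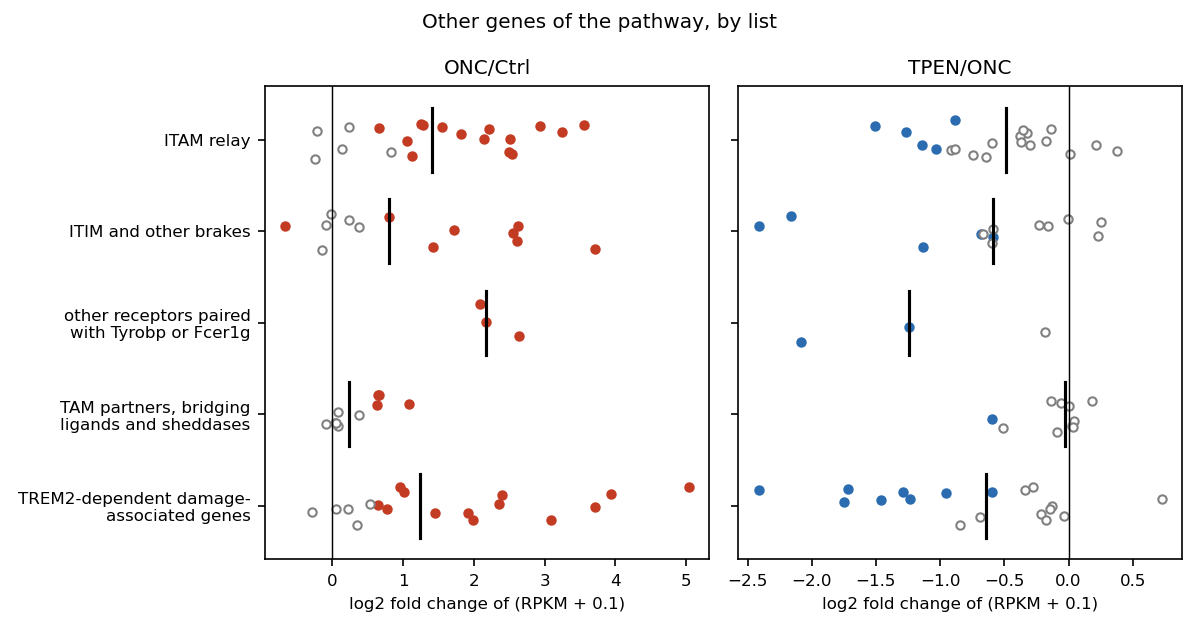
Log2 fold change of (RPKM + 0.1) of every listed gene of the 5 lists, from the fit without the filter, in ONC/Ctrl and TPEN/ONC. Filled points were called, open points were not, and vertical bars are medians. In TPEN/ONC no filled point lies above 0, and 8 of 18 genes of the damage-associated list are filled.

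The genes most like Trem2 over the 9 libraries, by the smallest root mean square difference of log2 levels centred on each gene's mean among 12139 genes that averaged 1 RPKM or more, were Cx3cr1 (0.227), Socs3 (0.228), Nupr1 (0.233), Nudt6 (0.255) and Selplg (0.257). Cx3cr1, the fractalkine receptor gene of microglia, was at 0.634, 4.01 and 2.87 RPKM on average in Ctrl, ONC and TPEN, and it overlaps 4 other listed genes. Those most like Mertk were Phldb1 (0.156), D430019H16Rik (0.157), mt-Tr (0.166), 6430562O15Rik (0.166) and Gm20425 (0.167). Of the 5 genes most like Trem2, only Cx3cr1 is in any of the 19 lists of cell type markers, and of the 5 most like Mertk none is. These lists are short beside the genes compared, so absence from them does not bear on cell type. The points share libraries and depth, and the measure is a description.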

How the data were processed

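The authors trimmed reads of a stranded mRNA kit with molecular identifiers using Trimmomatic 0.36 (submitters' processing notes), aligned them with STAR to GRCm38 and deposited 1 table of RPKM values for 9 libraries. The counting program, annotation, use of strand and handling of identifiers are not given in the sources used here. Each RPKM value was a whole number of reads times a factor for the library and the gene's exon length, in 100% of values (tolerance 0.0001), and the reads recovered in this way entered limma-voom as an alternative, which called 659 genes higher and 129 lower for ONC/Ctrl, 151 higher and 219 lower for TPEN/ONC, and 533 higher and 86 lower for TPEN/Ctrl. The authors' own fold changes, p-values and FDR values in the table were not used. RPKM values were set on a log2 scale with a pseudocount of 0.1 and tested in limma 3.58.1 with a trend, over all 9 libraries, with Benjamini-Hochberg p-values over genes that averaged 0.5 RPKM or more, and the fit was tested on simulated data. Sequences are RefSeq promoters.

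The members and gene lists were chosen with earlier results of these data known. Named from each list were the genes called in ONC/Ctrl with the largest changes, at most 4, and set genes beside a member. List genes without a row were not used here. Markers of neutrophils, T and NK cells, B cells and mast cells had 0 listed genes, and perivascular macrophages 2 of 6 (0 to 0.120 RPKM in Ctrl, 2.28 to 3.68 in ONC, 0.0511 to 0.215 in TPEN), dendritic cells 3 of 6 (0.623 to 0.915, 1.19 to 1.32 and 0.764 to 1.45), endothelial cells and pericytes 4 of 7 (11.9 to 12.6, 14.0 to 14.0 and 15.0 to 16.0), fibroblasts 1 of 5 (0.0979 to 0.125, 0.0738 to 0.130 and 0.0898 to 0.160).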

Additional observations from a re-analysis of the deposited data

How the results depend on the processing

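In ONC/Ctrl the count of 5 members called became 9 with no filter, also by limma-voom on whole reads with no filter, since 4 more genes were then tested. In TPEN/ONC the count of 1 became 2 with a pseudocount of 1 RPKM, 2 with the replicate number as a block, 2 by limma-voom, 0 when tested against a fold change of 1.5, 5 with no filter and 7 by limma-voom with no filter (the last chosen after seeing the data), and 0 to 1 with 1 library left out, 0 being without ONC replicate 2, TPEN replicate 1 or TPEN replicate 3. At an unadjusted limma p under 0.05, 2980 genes differed in TPEN/ONC. In TPEN/Ctrl the count of 5 became 1 with a pseudocount of 1 RPKM, 1 against a fold of 1.5, 9 with no filter, 8 by limma-voom with no filter, and 4 to 5 with 1 library left out. The cause was not tested where the number of genes did not change. Replicate numbers did not pair the libraries (correlations of deviations from -0.06 to 0.03, 0 of 9 pairs over 0.1, 0 of 9 libraries best with their own number). The block gave adjusted p of 0.0564 for Fcgr1 in TPEN/ONC and 0.0574 for Fcer1g in TPEN/Ctrl. With 1 library left out, the log2 change of Mertk in TPEN/ONC ran from -0.24 to 0.022, the latter without TPEN replicate 3, and the TPEN minus ONC value of the Fcgr2b to Fcgr3 log2 ratio from -0.49 to 0.15, above 0 without ONC replicate 3, TPEN replicate 1 or TPEN replicate 2. With a pseudocount of 1 RPKM that ratio was 0.17. Of 140 member changes under alternatives in each comparison, 139 kept direction and call in ONC/Ctrl, 113 in TPEN/Ctrl and 114 in TPEN/ONC. These 140 leave out the test against a fold change of 1.5 and the calls with no minimum fold. Low read counts limit 6 genes in Ctrl, where the 3 libraries together held 2 reads of Clec7a, 10 of Fcgr3, 14 each of Fcer1g and Syk, 16 of Fcgr2b and 19 of Fcgr1.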
